A study of Mus musculus with 10 samples.

Results

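The genes for the proteins of the mitochondrial ribosome were followed in O9-1 cells, a mouse cell line of cranial neural crest origin. Rows of the counts table with a gene symbol made of *Mrpl* or *Mrps*, a number and at most a letter a, b or c were taken, if their mean raw count in wildtype cells was at least 50. This rule found 76 genes among 43346, of which 47 carry the large subunit name (*Mrpl*) and 29 the small subunit name (*Mrps*). A further row, *Mrpl53*, matched the name but had 0 counts in each of the 10 libraries. In the GENCODE annotation, 88% of its exon bases (695 bases) are shared on the same strand with another gene model, *Gm42688*. The gene closest to the limit from above was *Mrpl41* with a mean of 588.5 raw counts, so the limit separated no expressed genes from each other. Symbols follow the files, and *Mrps36* belongs here by its name alone, since its product is now assigned to the oxoglutarate dehydrogenase complex.

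Mitochondria keep a small genome of their own, which codes for core subunits of the respiratory chain and the ATP synthase. These few proteins are made inside the organelle by a ribosome that combines rRNAs encoded there with proteins encoded in the nucleus, made in the cytosol and imported. The large subunit forms peptide bonds and feeds the growing chain through an exit tunnel towards the inner membrane, and the small subunit binds the mRNA and decodes it. Many of its proteins have bacterial relatives, and others are found in mitochondria only.

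RNA sequencing of poly-A RNA compared 4 wildtype samples of uncloned O9-1 cells with 3 Kat5 ko clones and 3 Ep400 ko clones made by CRISPR/Cas9. Kat5 is the histone acetyltransferase and Ep400 the ATPase that exchanges histone H2A variants within the Tip60/Ep400 chromatin remodeling complex. The Kat5 clones carried insertions or deletions in every allele of these tetraploid cells. Of the 3 Ep400 clones, 1 carried frameshifts in every allele, and the other two had a frameshift in some alleles and a short in-frame deletion in the ATP binding site in the rest. All cells grew in medium conditioned by mouse fibroblasts, and each ko library is a single clone (Kat5/1 to Kat5/3 and Ep400/1 to Ep400/3), while the wildtype libraries (WT/1 to WT/4) are independent samples of the parental line. The p-values therefore measure the spread between these clones and samples. Clone-to-clone variation cannot be told apart from variation in the effect of the knockout. The clones were grown from single transfected and sorted cells, and no such wildtype clone is among the libraries. Effects of transfection, sorting and cloning therefore cannot be told apart from those of the knockout. In bulk RNA, fewer cells of a kind and less RNA per cell cannot be told apart either, and values relative to the total of a library do not show a change of total RNA per cell.

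Between 30968945 and 48301792 reads were counted on genes per library, and genes of the mitochondrial genome took 0.893% to 3.24% of them. *Kat5* changed by −1.40 on the log2 scale in Kat5 ko clones (SE 0.17, adjusted p = 0.0207) and *Ep400* by −1.45 in Ep400 ko clones (SE 0.12, adjusted p = 0.0012), by the quasi-likelihood test of edgeR. All adjusted p-values below come from it and were corrected over all genes tested after Benjamini and Hochberg. The call of *Kat5* was lost without WT/1, WT/4 or Kat5/3, with log2-fold changes of −1.37, −1.36 and −1.47 and adjusted p-values of 0.103, 0.0985 and 0.0749. These fits called 1, 1 and 4 of all genes. Of 15 neural crest markers, 10 had a level of at least 1 CPM, a count scaled to library size, in every library, and *Sox10* and *Foxd3* were at 0 throughout. The summed CPM of 9 markers of epithelium, endothelium, blood, neurons and pluripotent cells was between 0.422 and 2.84, and *Pou5f1* and *Rbfox3* were at 0. *Pecam1*, a marker of endothelium, was lower in Ep400 ko clones (log2-fold change −3.33, adjusted p = 0.0236), at no more than 1.59 CPM in any library. The neural crest markers *Pax3* (5.13, adjusted p = 0.00369), *Tfap2a* (1.37, adjusted p = 0.023) and *Snai2* (0.86, adjusted p = 0.0451) were higher in Ep400 ko clones. Of 13 neural crest markers tested in this comparison, 8 were above 0 and 5 below 0, and none was called lower. In wildtype samples *Pax3* was at 0.087 to 0.18 CPM only. The summed CPM of the neural crest markers was 1594 to 1838 in wildtype samples, 1674 to 1864 in Kat5 ko clones, and 1848, 2095 and 3079 in Ep400/1 to Ep400/3. *Prrx1* alone made up 2158 CPM of the sum in Ep400/3, against 651 to 952 CPM in wildtype samples. The part of these differences in the values of the members was not tested.

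The start regions are shown for 4 members as examples, all on the plus strand, which do not stand for the members as a whole. *Mrpl45* and *Mrpl34* passed the test in Ep400 ko clones, and *Mrpl12* and *Mrps18a* are named in every comparison. *Mrpl38* also passed it but had no start region in the collection used. *Mrps18b* and *Mrps18c*, also named in every comparison, are not shown. Capitals mark matches to motifs of factors known for nuclear genes of mitochondria, namely GCGCA and GCGC with any base between them for NRF1, CCGGAAG for the ETS factor GABPA, AANATGGC for YY1 and the E-box CACGTG, each searched on both strands. The sequences are the plus strand of GRCm38.p6 from RefSeq, from 130 bases before the RefSeq start up to the last base before the RefSeq start or the GENCODE gene, whichever comes first, at chr11:97315586-97315715 for *Mrpl45*, chr11:120484507-120484612 for *Mrpl12*, chr8:71464796-71464925 for *Mrpl34* and chr17:46110874-46110985 for *Mrps18a*.
Mrpl45: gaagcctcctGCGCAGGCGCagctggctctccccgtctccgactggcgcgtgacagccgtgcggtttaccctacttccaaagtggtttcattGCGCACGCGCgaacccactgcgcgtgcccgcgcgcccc
Mrpl12: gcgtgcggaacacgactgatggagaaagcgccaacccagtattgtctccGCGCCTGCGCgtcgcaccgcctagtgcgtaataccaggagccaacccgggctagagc
Mrpl34: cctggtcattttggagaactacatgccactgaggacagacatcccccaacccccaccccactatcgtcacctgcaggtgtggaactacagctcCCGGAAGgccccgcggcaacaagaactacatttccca
Mrps18a: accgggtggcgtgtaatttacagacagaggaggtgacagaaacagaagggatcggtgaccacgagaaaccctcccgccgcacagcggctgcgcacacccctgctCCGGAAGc
The window of *Mrpl45* holds a pair of NRF1 matches and that of *Mrpl12* a single one on the other strand, while *Mrpl34* and *Mrps18a* each hold an ETS match near the start. In all, 67 members had 73 start regions in this collection, each 300 bases long with 250 bases before the start and 50 after it. The NRF1 letters were found in 17.8% of these regions, against 4.6% of all 32851 start regions in the collection. For the ETS letters the shares were 32.9% and 8.86%, for YY1 27.4% and 6.05%, and for the E-box 9.59% and 7.15%. The E-box was found in 7 regions but in 5 of 67 members only, since overlapping regions of *Mrpl2* were counted separately. None of the 4 motifs contains another, more than 1 can lie in the same region, and a match is a description of the letters only. Members with an NRF1 match (13 of 67) had a median log2-fold change of −0.15 in Ep400 ko clones and those without of −0.11, a difference that was not tested. With and without an ETS match (24 of 67 with), the medians were −0.053 and −0.13.

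In wildtype cells, levels of the members were compared as RPKM, counts scaled to exon length and library size, which was possible for 75 of them. The median was 17.5 RPKM, and 45 of 75 lay within 2-fold of it, although the highest and the lowest member differed 32.8-fold. The highest was *Mrps6*, a small subunit protein of the platform, at 109 ± 13.1 RPKM (SD, n = 4). This rank is uncertain, since *Slc5a3* shares exon bases with it on the same strand. It was followed by *Mrpl12*, which forms the stalk that contacts translation factors, at 72.0 ± 13.0, *Mrpl54* at 59.96 ± 10.7, *Mrpl34* at 57.6 ± 10.9 and *Mrpl28* at 52.5 ± 11.9. The ranges of *Mrps6* (94.9 to 123) and *Mrpl12* (59.5 to 86.7) did not overlap, whereas those of *Mrpl12*, *Mrpl54*, *Mrpl34* and *Mrpl28* did. At the lower end were *Mrpl48* at 3.34 ± 0.605, *Mrpl23* at 4.37 ± 0.781, *Mrps35* at 4.75 ± 0.358, *Mrps25* at 4.82 ± 0.792 and *Mrpl32* at 5.15 ± 0.369, with ranges that overlapped between neighbours. The level of *Mrps25* is uncertain, since 69.8% of its exon bases are shared with *Nr2c2* on the opposite strand. Large subunit genes had a median of 20.8 and small subunit genes of 14.6 RPKM. These levels depend on the exon length of the annotation, which includes exons that these cells may not use.

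As a whole, the members stayed close to the wildtype level in both knockouts, and libraries of the same group differed from each other as much as groups did. The median of the 76 members, as the log2 difference in CPM from the wildtype mean, was 0.10, 0.14, −0.17 and −0.055 in WT/1 to WT/4. It was −0.093, 0.31 and 0.15 in clones Kat5/1 to Kat5/3, and 0.088, −0.085 and −0.35 in clones Ep400/1 to Ep400/3. Clone Ep400/3 was thus the lowest of all libraries and Kat5/2 the highest, while Kat5/1, Ep400/1 and Ep400/2 were within the range of the wildtype samples. In Ep400/3, 8 of 76 members were above the wildtype mean, against 47 in Ep400/1 and 31 in Ep400/2. In Kat5/2 the number was 59, in Kat5/3 52 and in Kat5/1 31. The wildtype samples themselves ranged from 11 of 76 in WT/3 to 67 in WT/2. Members made up between 0.289% (Ep400/3) and 0.392% (Kat5/2) of the counts of a library. The share of mitochondrially encoded RNA was highest in Ep400/3 (3.24%) and, among wildtype samples, in WT/3 (2.43%), the libraries with the lowest member medians of their groups. It was lowest in Kat5/1 (0.893%), which had the lowest member median of the Kat5 ko clones, and its part in these medians was not tested.

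**Figure D1:**
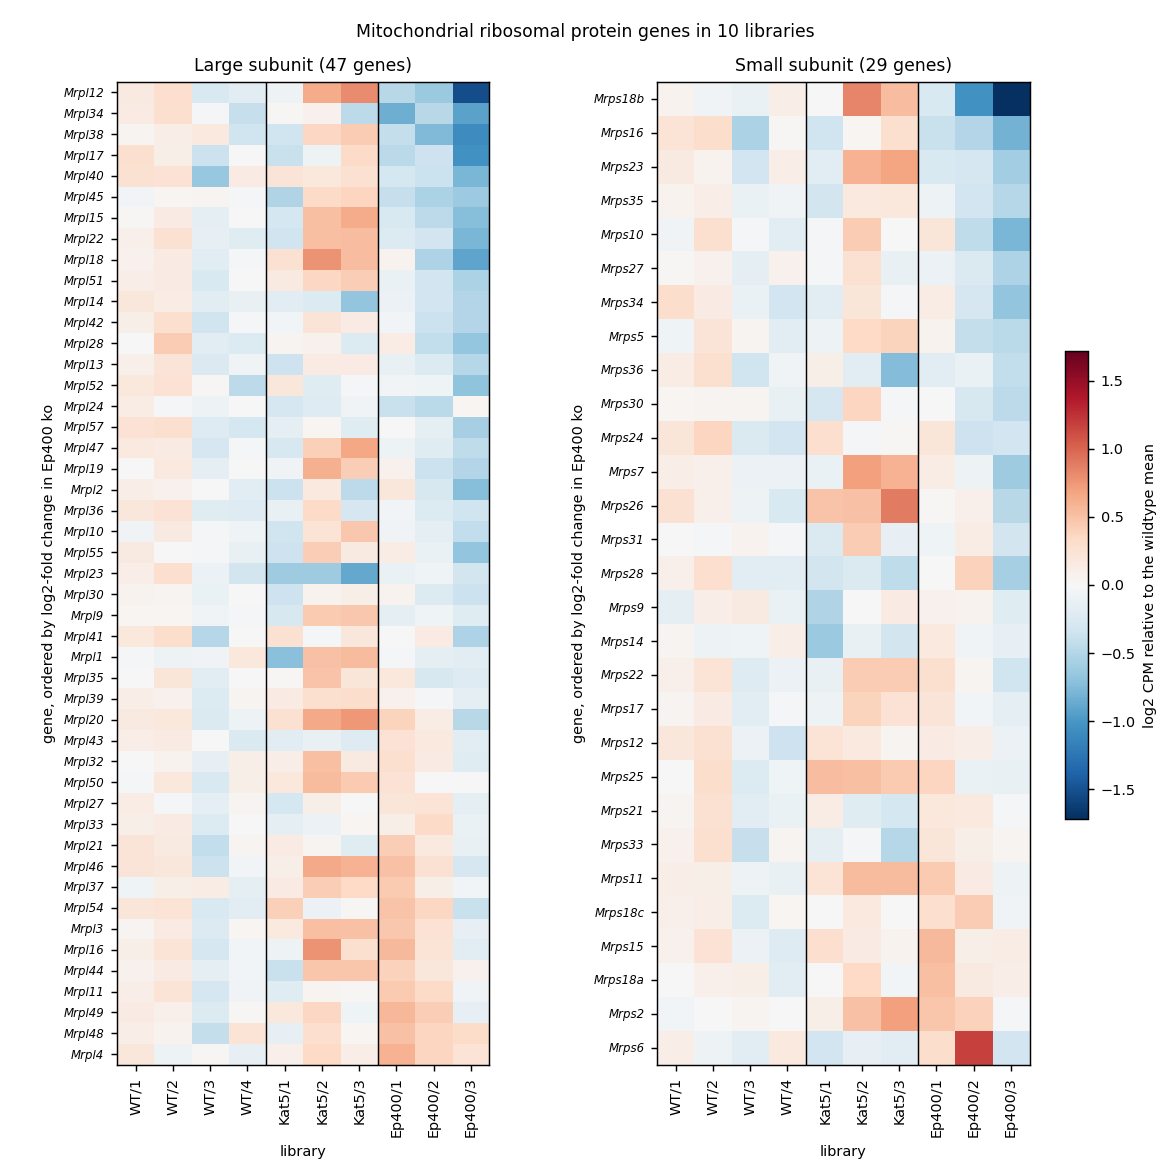
Level of each of the 76 genes (rows, ordered by log2-fold change in Ep400 ko clones) in the 10 libraries (columns), as log2 CPM relative to the wildtype mean of the gene, with red above and blue below it. Blue prevails in Ep400/3, where 8 of 76 genes were above the wildtype mean, and red in Kat5/2 with 59 of 76, while WT/3 also tends to blue with 11 of 76.

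In Kat5 ko clones, no member passed the test. By edgeR's quasi-likelihood test, 0 of 76 had an adjusted p of at most 0.05, where 0.625% of 13434 genes did (0.179% higher, 0.447% lower). At an unadjusted p of at most 0.05 there were 8 higher members, against 10.7% of all genes, and 2 lower, against 11.6%, and DESeq2 called 2 higher (*Mrpl18*, *Mrps26*) and 1 lower (*Mrpl23*), with 11.1% of all genes called. The median log2-fold change of the members was 0.086 and that of all genes 3.2e-05, with 49 of 76 members above 0, against 50% of all genes. The median was 0.040 without Kat5/2, 0.14 without Kat5/1 and 0.17 without WT/2. Members varied less than the tested genes as a whole. Within 0.5 of 0 on the log2 scale stayed 96.1% of members, 68.2% of all genes and 78.7% of 6917 genes within the same range of mean counts. This was not particular to the members, which ranged from −0.74 to 0.60. The 74 nuclear genes of the respiratory chain and ATP synthase ranged from −0.70 to 0.29, and 84 cytosolic ribosomal protein genes from −0.45 to 0.71. The 3 clones of Kat5 lay above all wildtype libraries for 10 members, against 8.72% of all genes, and below them for 5 members, against 10.9%.

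The largest decrease of a Kat5 ko value was that of *Mrpl23*, whose product lines the mouth of the exit tunnel. Normalized counts, scaled across all 10 libraries, were 863, 969, 743 and 638 in WT/1 to WT/4 and 521, 518 and 431 in Kat5/1 to Kat5/3. The clones were below every wildtype sample, with a log2-fold change of −0.74 (SE 0.20) and an adjusted p of 0.0923. In Ep400 ko clones, its counts of 735, 753 and 637 overlapped with those of the wildtype.

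Among the higher values, *Mrps26*, a mitochondria-specific protein of the small subunit, had 1356, 1206, 1071 and 942 normalized counts in wildtype samples and 1586, 1604 and 2104 in Kat5 ko clones. The groups did not overlap, and the log2-fold change was 0.60 (SE 0.18, adjusted p = 0.112). *Mrpl20*, which belongs to the bacterial core of the large subunit, had 1852, 1881, 1398 and 1557 counts in wildtype samples and 1990, 2602 and 2790 in the clones, a log2-fold change of 0.53 (SE 0.17, adjusted p = 0.134). *Mrpl18*, a protein of the central protuberance, where the mitochondrial ribosome holds its structural RNA, had 2029, 2113, 1685 and 1878 counts against 2301, 3272 and 2778, with a log2-fold change of 0.50 (SE 0.16, adjusted p = 0.125). For these genes, too, all clones were above all wildtype samples. The log2-fold changes of *Mrps25* (0.46, SE 0.16, adjusted p = 0.15) and *Mrps2* (0.42, SE 0.16, adjusted p = 0.166) came with groups that did not overlap, whereas the groups overlapped for *Mrpl12* (0.45, SE 0.23, adjusted p = 0.282) and *Mrps18b* (0.46, SE 0.19, adjusted p = 0.204).

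Clone Kat5/1 differed from the other two. *Mrpl12* had 4561, 5000, 3431 and 3619 normalized counts in wildtype samples and 6377 and 7185 in Kat5/2 and Kat5/3, but 3848 in Kat5/1. Without Kat5/1, 13 members were called higher and 1 lower (*Mrpl23*), in a comparison in which 19.4% of all genes were called. The 13 were *Mrpl1*, *Mrpl3*, *Mrpl9*, *Mrpl12*, *Mrpl15*, *Mrpl18*, *Mrpl19*, *Mrpl20*, *Mrps2*, *Mrps7*, *Mrps18b*, *Mrps23* and *Mrps26*. Without any other library, no member was called, in fits that called between 0.00752% (without WT/1) and 0.42% (without WT/2) of all genes.

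In Ep400 ko clones, 3 large subunit genes were lower, and no member was higher. They were *Mrpl34*, *Mrpl38* and *Mrpl45*. With an offset for shifts of whole chromosomes (each library's median of a chromosome), 0 members were called, and in a fit of all libraries *Mrpl34* alone. A fit with the replicate number as a block called 0 members and 1.2% of all genes. The test called 5.72% of 13836 genes lower and 8% higher, so that 3 of 76 lower (3.95%) and 0 of 76 higher were below the background in both directions. At an unadjusted p of at most 0.05 there were 10 lower members, against 14.2% of all genes, and 1 higher, against 18%, and DESeq2 called 7 lower and 0 higher, with 22.6% of all genes called in either direction. The median log2-fold change of the members was −0.14, where that of all genes was 0.043, and 29 of 76 members were above 0, against 53.1% of all genes. Within 0.5 of 0 on the log2 scale were 88.2% of members, 60.2% of all genes and 73.7% of genes with similar counts. The Ep400 ko clones lay below all wildtype libraries for 8 members, against 14.1% of all genes, and above them for 3, against 16.1%. Those below were *Mrpl9*, *Mrpl12*, *Mrpl15*, *Mrpl22*, *Mrpl34*, *Mrpl38*, *Mrpl45* and *Mrps18b*, and those above *Mrpl4*, *Mrpl48* and *Mrps18a*. No member was a DEG, which also needs a change of at least 1 on the log2 scale, in this comparison (4.12% of all genes higher, 2.3% lower), in that of Kat5 (0.112% and 0.365%) or between the knockouts (3.06% and 2.3%). Without Ep400/3 the median of the members was −0.012, and without WT/2 −0.089.

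**Figure D2:**
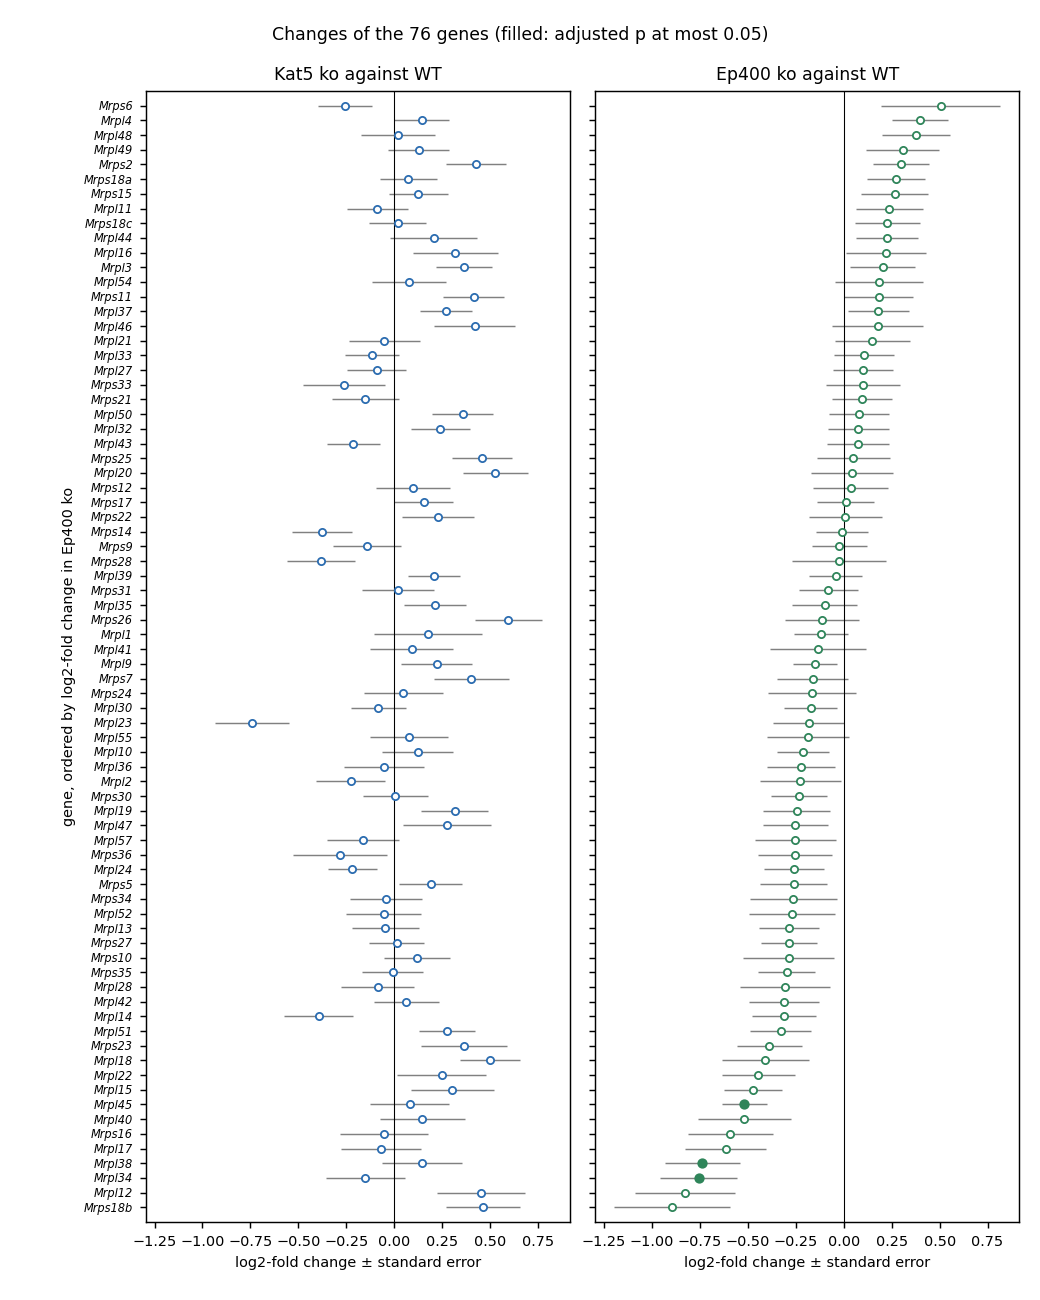
Log2-fold change (x axis) with standard error for each of the 76 genes (rows) in Kat5 ko clones (left) and Ep400 ko clones (right) against the shared wildtype samples, with filled points at an adjusted p of at most 0.05. The 3 filled points are *Mrpl45*, *Mrpl38* and *Mrpl34* in Ep400 ko clones, and 49 of 76 points are above 0 on the left but 29 of 76 on the right.

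*Mrpl45* (ENSMUSG00000018882, plus strand, chr11:97315716-97329920) codes for a mitochondria-specific protein at the exit of the tunnel that faces the inner membrane. It had 2688, 2841, 2863 and 2738 normalized counts in wildtype samples and 2112, 1909 and 1811 in the Ep400 ko clones. The clones were all below the narrow wildtype range, at 0.698 of its mean, with a log2-fold change of −0.52 (SE 0.12, adjusted p = 0.0251), or −0.33 with the chromosome offset (adjusted p = 0.0842). Its counts of 1939, 3494 and 3600 in Kat5 ko clones lay on either side of the wildtype.

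*Mrpl38* (ENSMUSG00000020775, minus strand, chr11:116131817-116138868) belongs to the central protuberance and has no bacterial counterpart. Its normalized counts were 3548, 3718, 3840 and 2702 in wildtype samples and 2576, 2016 and 1618 in Ep400 ko clones. The groups were separated by a small gap, between WT/4 and Ep400/1, with a log2-fold change of −0.74 (SE 0.20, adjusted p = 0.0403).

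*Mrpl34* (ENSMUSG00000034880, plus strand, chr8:71464959-71465747) codes for a small protein of the bacterial core of the large subunit. It had 1429, 1566, 1277 and 987 normalized counts in wildtype samples and 725, 927 and 686 in Ep400 ko clones. Here, too, WT/4 was close to the highest clone, and the clones were at 0.592 of the wildtype mean, with a log2-fold change of −0.76 (SE 0.20, adjusted p = 0.0403). Its counts of 1312, 1364 and 946 in Kat5 ko clones overlapped with the wildtype.

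None of the 3 calls was kept in every fit with 1 library left out. That of *Mrpl34* was kept without WT/4 or Ep400/2 and lost without WT/1 (adjusted p = 0.111), WT/2 (0.102), WT/3 (0.0619), Ep400/1 (0.0815) or Ep400/3 (0.0867). *Mrpl38* kept it without WT/4 or Ep400/1 and lost it without WT/1 (adjusted p = 0.104), WT/2 (0.0973), WT/3 (0.0725), Ep400/2 (0.0897) or Ep400/3 (0.0751). *Mrpl45* kept it without WT/3, Ep400/1 or Ep400/3 and lost it without WT/1 (adjusted p = 0.077), WT/2 (0.0689), WT/4 (0.0655) or Ep400/2 (0.0589). Where the calls were lost, the log2-fold changes were between −0.78 and −0.51. The main fit called 13.7% of all genes. The fits without WT/1, WT/2, WT/3 and WT/4 called 5.85%, 7.19%, 12.1% and 6.06%. Those without Ep400/2 and Ep400/3 called 10.1% and 12.3%. Without Ep400/1, 6 members were called lower, in a comparison with 14.3% of all genes called in either direction, among them *Mrpl12* (log2-fold change −1.03, adjusted p = 0.0496) and *Mrps18b* (−1.35, adjusted p = 0.0133).

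Other members had values as low without passing the test. *Mrpl12* had 2958, 2641 and 1427 normalized counts in Ep400 ko clones, below its wildtype range from 3431 to 5000, with a log2-fold change of −0.83 (SE 0.26, adjusted p = 0.0675). The values of *Mrpl17*, a protein near the tunnel exit, were 2001, 2153 and 1339 in Ep400 ko clones against 2142 to 3337 in wildtype samples (log2-fold change −0.61, SE 0.21, adjusted p = 0.086). *Mrps16* of the small subunit body had 1373, 1268 and 1025 counts against 1235 to 2205 (−0.59, SE 0.22, adjusted p = 0.104), and *Mrpl40* of the central protuberance 1152, 1096 and 822 against 905 to 1700 (−0.52, SE 0.24, adjusted p = 0.179). For these last 3 genes the groups overlapped through WT/3 alone. Without WT/3, *Mrps16* and *Mrpl40* were called (adjusted p = 0.0324 and 0.0419).

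The 3 genes related to bacterial S18 showed different values in Ep400 ko clones. Their products occupy separate sites in the ribosome, and that of *Mrps18a* is part of the large subunit despite its name. *Mrps18b* had 1463, 1352, 1300 and 1524 normalized counts in wildtype samples and 1168, 682 and 426 in Ep400 ko clones. All clones were below the wildtype, but they differed widely among themselves, and the log2-fold change of −0.89 (SE 0.30) had an adjusted p of 0.0825. Counts of 1417, 2511 and 2038 were found in Kat5 ko clones. *Mrps18a* had 1630, 1722, 1741 and 1424 counts in wildtype samples and 2329, 1811 and 1764 in Ep400 ko clones, which were above the wildtype with a log2-fold change of 0.27 (SE 0.15, adjusted p = 0.249). *Mrps18c* had 991, 1014, 793 and 959 counts in wildtype samples and 1147, 1262 and 893 in Ep400 ko clones, with overlap and a log2-fold change of 0.23 (SE 0.17, adjusted p = 0.381). Against this, the log2-fold changes in Kat5 ko clones of *Mrps18a* (0.074, SE 0.15, adjusted p = 0.808) and *Mrps18c* (0.018, SE 0.15, adjusted p = 0.955) were near 0. Gene models share 30.5% of the exon bases of *Mrps18b* on the opposite strand and 23.2% of those of *Mrps18c* on the same strand, so part of these counts may belong to the other gene.

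**Figure D3:**
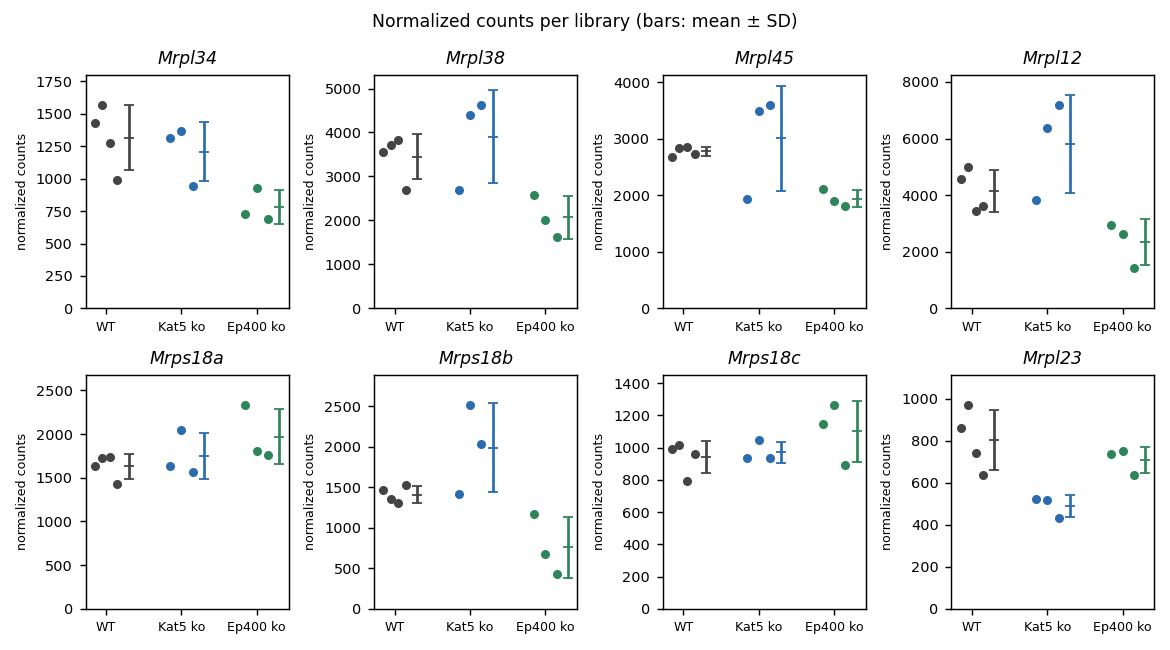
Normalized counts (y axis, from 0) of 8 genes in each library of wildtype, Kat5 ko and Ep400 ko cells, with points for libraries and bars for the mean and SD of each group. For *Mrpl45* the Ep400 ko clones lie between 1811 and 2112, below all wildtype samples, and for *Mrpl12* the Kat5 ko clones spread from 3848 to 7185 while the Ep400 ko clones reach 2958 at most.

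Members were also grouped by the subunit in their name and by the place of their products in the ribosome. In Ep400 ko clones the genes named for the large subunit had a median log2-fold change of −0.18 (17 of 47 above 0, 3 called lower) and those named for the small subunit of −0.025 (12 of 29 above 0, none called). Of all 76 members, 47 were below 0. The exit tunnel (7 genes) had a median of −0.26 with 6 of 7 below 0, *Mrpl45* being the only one called. Its library medians were −0.23, −0.33 and −0.43 in Ep400/1 to Ep400/3, against −0.14 to 0.14 in wildtype samples. The central protuberance (7 genes) had a median of −0.27 with 5 of 7 below 0, and *Mrpl38* was the only one called. Its library medians were 0.064, −0.11 and −0.69 in these clones, against −0.19 to 0.15 in wildtype samples, so that Ep400/3 alone was below. The 5 genes near the peptidyl transferase center had a median of 0.20 with 4 of 5 above 0, and the 4 genes of the small subunit platform of 0.22 with all above 0, none of them called. Library medians in Ep400/1 to Ep400/3 were 0.46, 0.24 and −0.17 for the former and 0.38, 0.15 and −0.066 for the latter. Wildtype samples were at −0.15 to 0.12 and −0.15 to 0.17. Differences between these sites were not tested. In Kat5 ko clones, the 4 genes for decoding and mRNA entry were all above 0 (median 0.14), and the medians of the other groups were between −0.012 and 0.14. By descent, the 48 genes with a bacterial homologue and the 27 specific to mitochondria had medians of −0.16 and −0.11 in Ep400 ko clones and of 0.087 and 0.091 in Kat5 ko clones.

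*Mrps6* stood out through a single clone and is named here after its values were seen. It had 6808, 5892, 5473 and 7078 normalized counts in wildtype samples, 7771 and 4984 in Ep400/1 and Ep400/3 and 14140 in Ep400/2. Exons of *Slc5a3*, a myo-inositol transporter, overlap *Mrps6* on the same strand, and its normalized counts in the Ep400 comparison were 33630 in Ep400/2 against 8945 to 17920 in the other libraries. Both genes were highest in Ep400/2, and their shared reads cannot be told apart. The exons of *Mrps11* and *Mrpl46*, which start head to head, also overlap, with log2-fold changes of 0.41 and 0.42 in Kat5 ko clones and 0.18 for both in Ep400 ko clones. In all, 30 of the 75 positioned members share exon bases with another gene, 6 of them on the same strand. Among those on the opposite strand are *Mrpl12* (13.05% of its exon bases, with *Gm16755*) and *Mrpl18* (10.09%, with *Tcp1*).

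For 23 members, a coding gene on the opposite strand started within 1000 bases upstream of their start or a short way inside them. *Mrps11* and *Mrpl46*, whose starts lie further inside each other, are not among these. None of the 23 partner genes was called in Kat5 ko clones, where 0.625% of all genes were. In Ep400 ko clones 2 of 23 were called, both higher, where 8% of all genes were called higher and 5.72% lower. They were *Cyb5rl* next to *Mrpl37* (log2-fold change 1.01, adjusted p = 0.0323, against 0.18 for *Mrpl37*) and *Eme2* next to *Mrps34* (1.37, adjusted p = 0.0119, against −0.26 for *Mrps34*). Neither member passed the test.

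The members lie on 17 chromosomes, and genes of some chromosomes were shifted together, in all clones of a knockout or in single ones. The median log2 difference from the wildtype mean of the other genes on chromosome 11, which carries 10 members with *Mrpl12*, *Mrpl38* and *Mrpl45* among them, was −0.17, −0.19 and −0.20 in Ep400/1 to Ep400/3. The members on this chromosome had a median log2-fold change of −0.30 in Ep400 ko clones, and 9 of 10 were below 0. On chromosome 19, other genes were at 0.29, 0.27 and 0.25 in the same clones, and all 5 members were above 0 with a median of 0.22. Other genes on chromosome 8, with *Mrpl34*, were at −0.21, −0.00053 and −0.14, and those on chromosome 17, with *Mrps18b*, at 0.14, −0.28 and −0.080. In clone Kat5/3 chromosome 17 was at −0.36. With each library's chromosome medians as an offset, *Mrpl34* had a log2-fold change of −0.64 (adjusted p = 0.0511), *Mrpl38* of −0.55 (0.0789) and *Mrpl45* of −0.33 (0.0842), so that 0 of 76 members were called. The direction of all 3 was kept, and the SD of the log2-fold changes over 75 members went from 0.297 to 0.261. The same offset took this SD from 0.251 to 0.255 in the comparison of Kat5 and from 0.392 to 0.370 between the knockouts. Whether copies of these chromosomes differ between the clones was not tested.

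**Figure D4:**
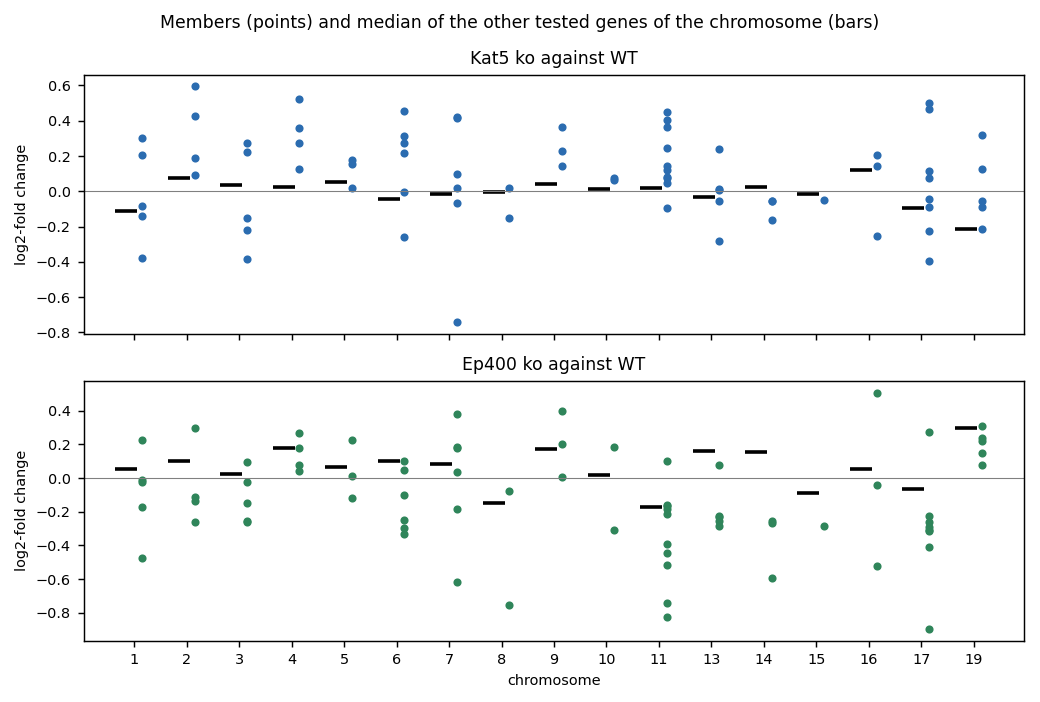
Log2-fold change (y axis) of the members (points) and the median of the other tested genes of the same chromosome (black bars), by chromosome, in Kat5 ko clones (top) and Ep400 ko clones (bottom). On chromosome 11 the bar for Ep400 is at −0.17 with 9 of 10 members below 0, and on chromosome 19 it is at 0.29 with all 5 members above 0.

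The direct comparison of Ep400 ko with Kat5 ko clones, which does not use the wildtype samples shared by the comparisons above, also called no member. Here 0 of 76 passed, where 7.05% of 13587 genes did (4.22% higher, 2.83% lower). At an unadjusted p of at most 0.05, 14 were lower, against 16% of all genes, and 0 higher, against 16.3%, and DESeq2 called 7 lower and 0 higher, with 22.6% of all genes called in either direction. The median log2-fold change of the members was −0.27, against 0.0063 for all genes, and 20 of 76 were above 0, against 50.3% of all genes. Without Ep400/3 the median of the members was −0.11, and without Kat5/2 −0.18. Ep400 ko clones lay below all Kat5 ko clones for 14 members, against 19.4% of all genes, and above them for 3, against 19.5%. The lowest values were those of *Mrps18b* (log2-fold change −1.41, SE 0.39, adjusted p = 0.064) and *Mrpl12* (−1.33, SE 0.34, adjusted p = 0.0559), followed by *Mrpl18* (−0.96, SE 0.29, adjusted p = 0.072) and *Mrpl38* (−0.93, SE 0.27, adjusted p = 0.0695). *Mrpl15*, *Mrps23*, *Mrps26* and *Mrpl22* had log2-fold changes between −0.82 and −0.74. *Mrps18a* and *Mrps18c* were at 0.15 (SE 0.21) and 0.16 (SE 0.21). As against wildtype cells, clone Kat5/1 mattered: without it, 9 members were called lower, in a comparison with 18% of all genes called.

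Other genes of mitochondrial translation were followed in lists. Of all genes, 8% were called higher and 5.72% lower in Ep400 ko clones. In Kat5 ko clones 0.625% were called in either direction, and between the knockouts 7.05%. Whether the lists differ from these shares was not tested. Of 6 ribosome subunits without an *Mrp* name, such as *Dap3* and *Ptcd3*, none was called in any comparison, and in Ep400 ko clones their median log2-fold change was −0.36 with 5 of 6 below 0. Of 24 assembly factors, *Mterf3*, which takes part in the biogenesis of the large subunit, was higher in Ep400 ko clones (0.46, SE 0.13, adjusted p = 0.0486), with none called in Kat5 ko clones. Of 15 translation factors, the initiation factor *Mtif3* was higher (0.54, SE 0.15, adjusted p = 0.0462). Of 14 genes for expression of mitochondrial DNA, the transcription factor *Tfb2m* was higher (0.56, SE 0.15, adjusted p = 0.0424) and *Hsd17b10*, a subunit of mitochondrial RNase P, lower (−0.79, SE 0.17, adjusted p = 0.0213). None of the translation factors or genes for expression of mitochondrial DNA was called in Kat5 ko clones, and none of these lists had a called member in the direct comparison. Of 10 regulators, such as *Nrf1*, *Gabpa*, *Yy1* and *Pprc1*, none was called in any comparison. *Pprc1*, a coactivator of nuclear genes for mitochondria, had a log2-fold change of 0.81 (SE 0.22, adjusted p = 0.0937) in Kat5 ko clones.

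Sets of related genes are given for comparison, beside 5.72% of all genes called lower and 8% called higher in Ep400 ko clones. The 84 cytosolic ribosomal protein genes were all below 0 in Ep400 ko clones, with a median of −0.40 and 11 called lower, and none was called in Kat5 ko clones (median −0.13). Their library medians were −0.31, −0.22 and −0.68 in Ep400/1 to Ep400/3, each below the lowest wildtype value of −0.15, whereas the median of the members was below the wildtype range in Ep400/3 alone. Among 74 nuclear genes of the respiratory chain and ATP synthase, *Atp5g1* (−0.76, adjusted p = 0.0285) and *Atp5b* (−0.69, adjusted p = 0.045) were lower and *Ndufb2* (1.11, adjusted p = 0.0348) higher in Ep400 ko clones, with a median of −0.080 for the list. Their library medians were 0.10, 0.012 and −0.30 in Ep400/1 to Ep400/3, against −0.15 to 0.18 in wildtype samples, so that Ep400/3 was the one Ep400 ko clone below the wildtype range, as it was for the members. None of them was called in Kat5 ko clones (median −0.097). The 10 mitochondrially encoded mRNAs tested, which are the templates of this ribosome, had medians of −0.60 in Kat5 ko and 0.24 in Ep400 ko clones, with none called. Some of them had few counts. Wildtype means in the Kat5 comparison were 30 for *mt-Co2*, 21 for *mt-Atp6*, 27 for *mt-Co3* and 174 for *mt-Nd6*. Those of the others were between 35850 (*mt-Nd4*) and 282100 (*mt-Co1*), and the medians give all 10 equal weight. Between the knockouts, all 10 were above 0 with a median of 0.75. Here *mt-Nd4*, a subunit of complex I, was higher in Ep400 ko clones (1.30, SE 0.30, adjusted p = 0.048), where 4.22% of all genes were called higher. The difference between these sets and the members was not tested.

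**Figure D5:**
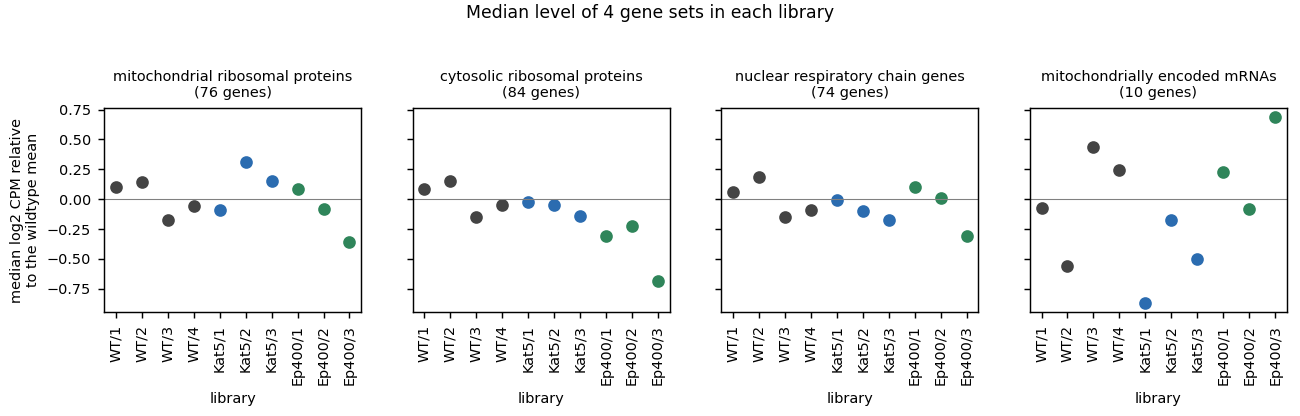
Median of log2 CPM relative to the wildtype mean (y axis) in each library for the 76 members, 84 cytosolic ribosomal protein genes, 74 nuclear respiratory chain genes and 10 mitochondrially encoded mRNAs, with grey points for wildtype, blue for Kat5 ko and green for Ep400 ko. The members range from −0.35 in Ep400/3 to 0.31 in Kat5/2, and the mitochondrially encoded mRNAs spread from −0.87 in Kat5/1 to 0.68 in Ep400/3.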

How the data were processed

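The 10 RNA libraries came from wildtype O9-1 cells (4 samples) and from clones with a knockout of Kat5 (3) or Ep400 (3). According to the labels and methods, stranded poly-A libraries were sequenced with paired reads of 100 bases and mapped to mm10. The submitters' processing notes name bcl2fastq 2.20, STAR 2.7.3, R 4.2.1 and DESeq2 1.36.0. The counting program, its strand setting and its annotation are not given in the sources used here. The authors deposited raw counts of reads per gene, which were used, and tables of normalized counts, which were not.

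For each comparison, low genes were removed with filterByExpr, TMM factors were computed, and genes were tested with edgeR 4.0.16 (quasi-likelihood test with robust prior, Benjamini-Hochberg adjustment over all genes tested, R 4.3.3). Calls needed an adjusted p of at most 0.05. DEGs also had to change by at least 1 on the log2 scale, in either direction, with over 100 normalized counts in the mean of a group. Log2 CPM used a prior count of 2. Total counts were 30968945 to 48301792 per library. Libraries of the same group were compared for duplicates, and none differed by as little as the noise of counting (chi-square divided by its degrees of freedom was 28.1 or more). Named are all called members, further members by absolute log2-fold change until 8 per comparison, the 3 *Mrps18* genes, *Mrpl12*, the 5 highest and 5 lowest wildtype levels per length, the targeted genes, and at most 4 called genes per list. The members and lists were chosen with earlier results of these data known, and roles and lists were written from general knowledge. Positions are from GENCODE M21 on GRCm38, which is mm10. It holds 75 of the 76 members by identifier, without *Mrpl33*. Alternatives were DESeq2 1.42.0, other normalizations and filters, a fit of all libraries, a replicate block, offsets for chromosome, gene length and GC content, each library left out in turn and, added after values had been seen, no robust prior.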

Additional observations from a re-analysis of the deposited data

Results flagged for a closer look

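Among the wildtype samples, WT/3 stood apart for *Mrpl40*, with 905 normalized counts against 1566, 1691 and 1700 in WT/4, WT/2 and WT/1. The gap to the nearest sample was 0.831 of the whole range of the group, just above Dixon's 95% critical value for 4 samples. It was the only one of 21 such groups, each the wildtype values of a named gene, to exceed it, where chance gives about 1 in 20. Other genes on chromosome 16, which carries *Mrpl40*, had a median log2 difference of −0.30 from the wildtype mean in WT/3 and between 0.078 and 0.12 in the other wildtype samples, and the part of this shift in the value was not tested.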

How the results depend on the processing

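The median log2-fold changes of the members moved by less than the SD between libraries (0.176 in the comparison of Kat5, 0.188 in that of Ep400 and 0.213 in the direct one) under all alternatives run, with the same sign throughout. For Kat5 (0.086) and Ep400 (−0.14) the SD exceeded the size of the median itself, so this limit could not show that they are stable. The median for Ep400 was −0.012 without Ep400/3, and that for Kat5 0.17 without WT/2. The number of called members changed more. In Kat5 ko clones DESeq2 called 2 higher and 1 lower, and with 1 library left out the numbers were 0 to 13 higher and 0 to 1 lower. In Ep400 ko clones, instead of 3 lower members, DESeq2 called 7, the fit of all libraries 1, the chromosome offset 0, and the omission of single libraries 0 to 6. Between the knockouts, instead of 0 lower members, DESeq2 called 7, the fit of all libraries 8 (with 25.3% of all genes called in either direction), no filter 2 (6.47%), the gene length offset 1 (7.55%), and the omission of single libraries 0 to 9. A paired analysis with the replicate number as a block called 0 members in every comparison, 0 of all genes for Kat5 and 166 for Ep400. Residuals of libraries with the same number had correlations of −0.096 to 0.22. Those of libraries with different numbers were not computed, so these values cannot decide whether the numbers pair the libraries. The cause of these changes was not tested. In Kat5 ko clones, values near 0 changed sign. With single libraries left out, *Mrps18a* was between −0.044 (without Kat5/2) and 0.16, *Mrps18c* between −0.045 (without WT/3) and 0.071, with −0.028 without Kat5/2, and *Ep400* between −0.043 (without Kat5/2) and 0.28. *Mrps18c* was at −0.033 with library size alone, −0.045 with the chromosome offset and −0.019 with the GC content offset. No other sign changed among the named members and targeted genes recomputed. Among all members, further signs changed. In the comparison of Kat5, 27 members were below 0 in the main fit, 35 without Kat5/2 and 18 without WT/2. In that of Ep400, 47 were below 0 in the main fit, 38 without Ep400/3 and 56 without Ep400/1. Between the knockouts, 56 were below 0 in the main fit and 51 without Ep400/3. For all genes, the number called was 84 for Kat5 and 1489 with DESeq2, 1899 and 3131 for Ep400, and 958 and 3067 between the knockouts. At this number of libraries, even changes of over 3 standard errors did not always pass the test, as for *Mrpl23* in Kat5 ko clones (−0.74, SE 0.20).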
